A study of Mus musculus with 8 samples.

Results

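The genes described here are 10 genes of the MHC class I antigen presentation pathway in mouse dorsal root ganglia (DRG): the heavy chains H2-K1 and H2-D1, their light chain B2m, the peptide transporter subunits Tap1 and Tap2, the loading factor Tapbp, the immunoproteasome subunits Psmb8, Psmb9 and Psmb10, and the transactivator Nlrc5. They were taken by name as genes of this pathway, with earlier results of these data known. All 10 were found among the 24421 genes of the deposited count table. All 10 also passed the filter on low counts and were among the 17328 genes tested. RNA of lumbar ganglia (L3 to L5) was sequenced before injection (0d) and at 1, 3 and 30 days (1d, 3d, 30d) after 20 µl of 1% carrageenan, a seaweed polysaccharide that causes local inflammation, was injected under the skin of the left hind paw. All groups were wild-type male C57BL/6J mice, bought from 8 weeks of age on, and the 0d mice received no injection. Every time point is represented by 2 libraries from separate pools of 2 to 3 mice, so the p-values measure the spread between pools. No vehicle-injected group was analysed here, and time and injection therefore cannot be told apart.

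Class I molecules display peptides cut from proteins made inside the cell to CD8 T cells and to receptors of natural killer cells. The peptides are cut by the proteasome, carried into the endoplasmic reticulum by the Tap1/Tap2 transporter and loaded, with the help of tapasin (Tapbp), onto a heavy chain paired with beta-2-microglobulin (B2m). Interferons are known to raise the whole pathway, partly through Irf1 and the class I transactivator Nlrc5, and to exchange the 3 catalytic subunits of the constitutive proteasome for Psmb8, Psmb9 and Psmb10. Neurons are known for low class I levels at rest. In the mm10 build used for the counts, Psmb9, Tap1, Psmb8 and Tap2 lie in this order within chr17:34182099-34216321, inside the MHC, where H2-K1, H2-D1 and Tapbp also lie. B2m lies on chromosome 2, and Psmb10 and Nlrc5 on chromosome 8.

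The libraries held 44123208 to 73580338 counts, and each of the 10 genes had at least 193 counts in every library. According to the labels the cells are DRG neurons, while the methods describe dissected ganglia, and markers of several cell types were present. The summed level of 10 sensory neuron markers was 14600 to 15700 counts scaled to a common library size (CPM), that of 6 satellite glia markers 1050 to 1190 CPM, that of 6 Schwann cell markers 5440 to 10800 CPM and that of 13 macrophage markers 133 to 160 CPM. The 30d replicate 1 library had the lowest Schwann cell sum and the highest red blood cell sum (515 CPM, against 141 to 282 CPM in the others). In such bulk samples, more cells of a type and more RNA per cell cannot be told apart.

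One day after carrageenan, 4 of the 10 genes were called higher than at 0d (Tap1, Tap2, Tapbp and Psmb9), at a Benjamini-Hochberg adjusted p under 0.05 in edgeR's quasi-likelihood test. Over all genes tested, 0.329% were called higher in this comparison and 0.346% in either direction. The log2 fold changes of the 10 genes lay between 0.19 (H2-D1) and 1.48 (Nlrc5), with a median of 0.52 against a median of 0.0 over all genes tested. DESeq2, run as an alternative, called 7 of the 10 (0.606% of all genes). In 9 of the 10 genes both 1d libraries lay above both 0d libraries, which 15.5% of all genes tested did, and in H2-D1 the groups overlapped. At 3d, none of the 10 was called (0.219% of all genes were), with 4 at an unadjusted p under 0.05 (5.94% of all genes) and 1 called by DESeq2 (0.623%). Both 3d libraries lay above both 0d libraries in 9 of the 10 (all but Psmb9), as they did in 19.9% of all genes. At 30d, none was called against 0d (0.0231% of all genes were), with 2 at an unadjusted p under 0.05 (12.3%) and 0 called by DESeq2 (1.05%). These comparisons share the 0d libraries and are not independent of each other.

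**Figure D1:**
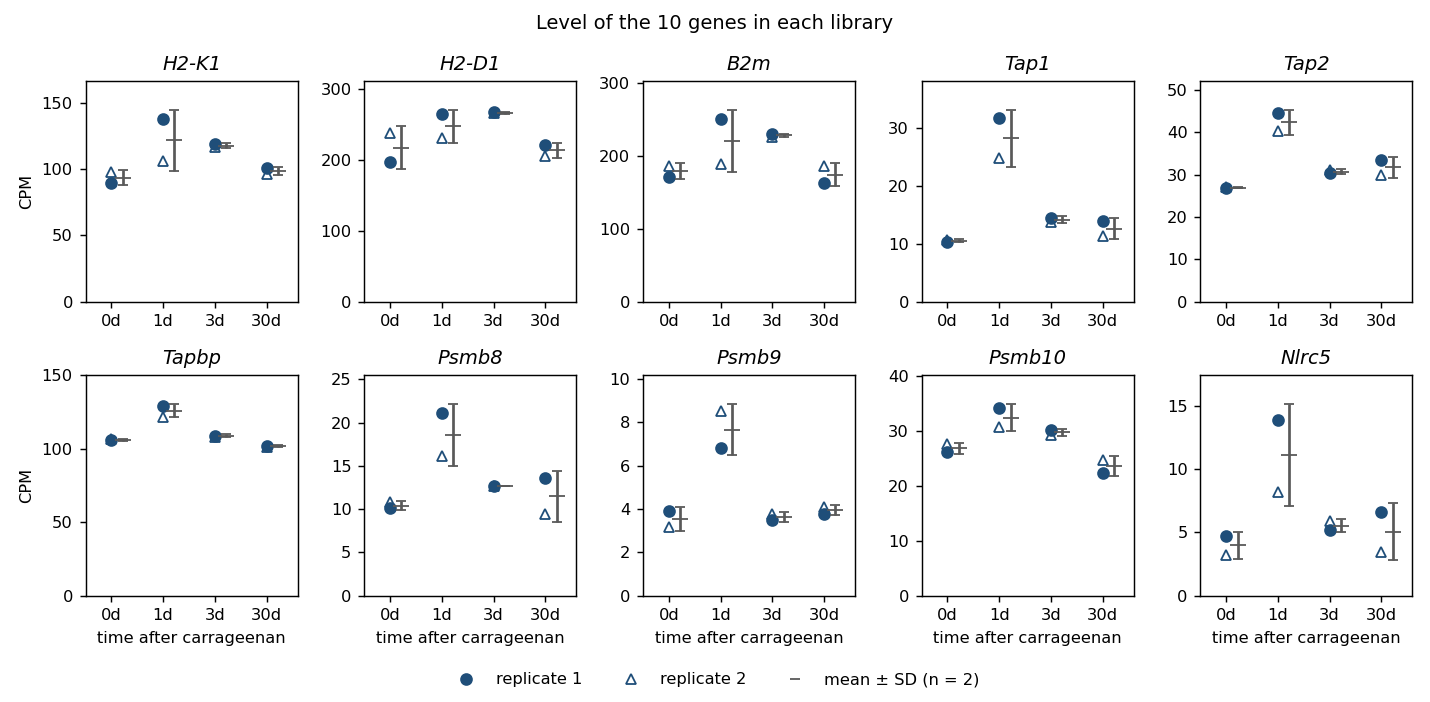
Level of each of the 10 genes in CPM (after TMM scaling) against the time after carrageenan, with 1 point per library and the mean ± SD of the 2 libraries beside them; each axis starts at 0. Tap1, Tap2, Tapbp, Psmb8, Psmb9 and Nlrc5 are highest in the 2 1d libraries, while the 3d libraries lie between the 1d libraries for H2-K1 and B2m and just above them for H2-D1.

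Before injection, the genes differed widely in level per transcript length. In CPM per kilobase of the deposited gene length (RPKM), the 0d means were 208 for B2m, 125 for H2-D1, 57.0 for H2-K1, 38.6 for Tapbp, 21.2 for Psmb10, 10.8 for Tap2, 8.52 for Psmb8, 4.38 for Psmb9, 3.56 for Tap1 and 0.573 for Nlrc5. No neighbours in this order overlapped between their 0d libraries. At 1d the RPKM of Tap2 overlapped that of Psmb8, and that of Tap1 overlapped that of Psmb9, while the light chain remained first (256 RPKM) and Nlrc5 last (1.59 RPKM).

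Tap1, an ATP-binding subunit of the transporter that moves peptides into the endoplasmic reticulum, showed the clearest rise. Its level was 10.3 and 10.7 CPM before injection, 31.6 and 24.7 CPM at 1d, 14.5 and 13.7 CPM after 3 days and 13.9 and 11.4 CPM after 30 days. Both 1d libraries were far above the other 6, and all 6 later libraries lay above both 0d libraries. The log2 fold change at 1d was 1.42 (SE 0.13), a 2.68-fold increase, with an edgeR adjusted p of 4.77e-05. The call held without any single library, with adjusted p-values up to 0.00185. At 3d it was 0.42 (SE 0.13, edgeR adjusted p = 0.432) and at 30d 0.27 (SE 0.13, adjusted p = 0.425), and neither passed. The 30d estimate was 0.12 without 30d replicate 1 and 0.40 without 30d replicate 2.

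Tap2, the partner subunit of Tap1, was less changed and more even between pools. Its level was 26.9 and 27.0 CPM in the 0d libraries, 44.5 and 40.3 CPM in the 1d libraries, 30.3 and 31.2 CPM in the 3d libraries and 33.5 and 30.0 CPM in the 30d libraries. The 1d libraries again stood above all others. At 1d it differed from 0d by 0.65 on the log2 scale (SE 0.08, edgeR adjusted p = 0.000608), and the call held without any single library. The 30d difference from 0d was 0.24 (SE 0.08) with an unadjusted p of 0.00834, and it did not pass after adjustment over all genes (edgeR adjusted p = 0.246).

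Tapbp encodes tapasin, which holds an empty class I molecule at the transporter. It was measured at 106 and 107 CPM in the 0d pools, then 129 and 122 CPM (1d), 109 and 108 CPM (3d) and 102 and 101 CPM (30d). The 1d rise was small, with a log2 fold change of 0.24 (SE 0.05, edgeR adjusted p = 0.037), and its call was the least stable of the 4. It was lost without either 0d library (adjusted p = 0.263 and 0.0942), either 1d library (0.527 and 0.0726) or either 3d library (0.126 and 0.133), and also with no robust estimation (0.0732) and in a fit of the 0d and 1d libraries alone (0.126). The estimate itself stayed between 0.21 and 0.28 in these fits.

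Psmb9 supplies a catalytic subunit of the immunoproteasome and lies beside Tap1. Its level was 3.91 and 3.15 CPM before injection, 6.82 and 8.50 CPM at 1d, 3.47 and 3.79 CPM after 3 days and 3.79 and 4.11 CPM after 30 days. The 1d libraries lay above the other 6, which spanned 3.15 to 4.11 CPM. Its log2 fold change at 1d was 1.12 (SE 0.19, edgeR adjusted p = 0.0156). The call was lost without 0d replicate 2 (adjusted p = 0.114), 1d replicate 1 (0.0536) or 1d replicate 2 (0.246).

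Psmb8, a second inducible catalytic subunit, fell just short of the threshold. It was measured at 10.1 and 10.8 CPM in the 0d libraries, 21.1 and 16.1 CPM in the 1d libraries, 12.7 and 12.7 CPM in the 3d libraries and 13.6 and 9.41 CPM in the 30d libraries. The 1d libraries were highest, and the 30d libraries spanned both 0d libraries. At 1d the log2 fold change was 0.83 (SE 0.17), with an edgeR adjusted p of 0.0699 and a DESeq2 adjusted p of 0.000455. Under edgeR it was called with no filter on low counts (adjusted p = 0.0156), in a fit of the 0d and 1d libraries alone (0.0225), and without 1d replicate 2 (0.0364), 30d replicate 1 (0.00151) or 30d replicate 2 (0.00176).

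Psmb10, the remaining inducible subunit, lies outside the MHC, unlike Psmb8 and Psmb9. Its level was 26.2 and 27.6 CPM in the 0d pools, then 34.2 and 30.7 CPM (1d), 30.3 and 29.4 CPM (3d) and 22.3 and 24.8 CPM (30d). Both 30d libraries were below both 0d libraries. Against 0d it differed by 0.27 (SE 0.08, edgeR adjusted p = 0.553) at 1d and -0.19 (SE 0.08, adjusted p = 0.383) at 30d, and neither passed.

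Each inducible subunit takes the place of a constitutive one in newly assembled proteasomes, and the ratio of the pair within a library does not depend on library scaling. The RPKM of Psmb8 was 7.69% and 7.40% of that of Psmb5 before injection, then 15.9% and 10.8% (1d), 9.34% and 9.04% (3d) and 10.7% and 6.68% (30d). The RPKM of Psmb9 was 4.75% and 3.56% of that of Psmb6 before injection, then 8.64% and 9.62% (1d), 4.33% and 4.73% (3d) and 4.87% and 5.17% (30d). For Psmb10 and Psmb7 the ratio was 14.3% in both 0d libraries, 17.9% and 15.5% (1d), 16.2% and 15.2% (3d), and 12.9% in both 30d libraries. All 3 ratios were higher in both 1d libraries than in both 0d libraries, by 1.77-fold, 2.20-fold and 1.17-fold in their means. They are given as a description, with no model fitted to the ratios over the 8 libraries; an exact permutation test of 2 libraries against 2 cannot give a two-sided p below 0.333. The denominators differed from 0d at 1d by log2 fold changes of 0.03 (SE 0.07) for Psmb5, -0.03 (SE 0.06) for Psmb6 and 0.05 (SE 0.06) for Psmb7.

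**Figure D2:**
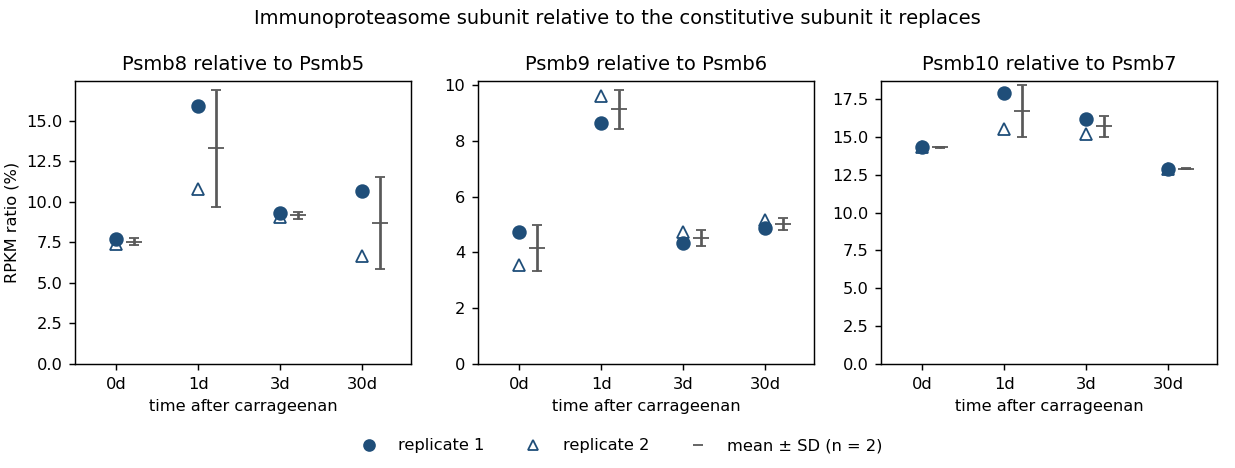
RPKM of Psmb8, Psmb9 and Psmb10 as a percentage of the RPKM of Psmb5, Psmb6 and Psmb7 in each library, against the time after carrageenan, with the mean ± SD of the 2 libraries; axes start at 0. In all 3 panels both 1d libraries lie above both 0d libraries, and the Psmb8 panel shows a wide gap between the 1d libraries (15.9% and 10.8%).

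Nlrc5, a nucleotide-binding protein that acts on class I promoters, had the largest estimate and the widest spread. Its level was 4.74 and 3.21 CPM before injection, 13.9 and 8.19 CPM at 1d, 5.17 and 5.91 CPM after 3 days and 6.64 and 3.46 CPM after 30 days. Both 1d libraries were above the other 6, but the ratio of replicate 2 to replicate 1 was as low as 0.521 (30d) and 0.588 (1d). The log2 fold change at 1d was 1.48 (SE 0.39), which did not pass in edgeR (adjusted p = 0.625) and passed in DESeq2 (adjusted p = 0.000153).

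Neither heavy chain nor B2m was called in any comparison in edgeR with all 8 libraries. H2-K1, a classical class I heavy chain, was measured at 89.7 and 97.9 CPM in the 0d libraries, 138 and 106 CPM in the 1d libraries, 119 and 117 CPM in the 3d libraries and 101 and 96.5 CPM in the 30d libraries. The 1d and 3d libraries all lay above both 0d libraries, and the 1d libraries enclosed the 3d libraries. Its log2 fold change was 0.38 (SE 0.12, edgeR adjusted p = 0.824) at 1d and 0.33 (SE 0.12, adjusted p = 0.733) at 3d. DESeq2 called both (adjusted p = 0.00627 and 0.041). In an edgeR fit of the 0d and 3d libraries alone the 3d difference of H2-K1 passed (adjusted p = 0.00779). The 1d estimate turned on single libraries, at 0.17 without 1d replicate 1, where it did not pass, and 0.56, which passed in edgeR (adjusted p = 0.000907), without 1d replicate 2. Without 1d replicate 1 or 2 the 3d difference passed in edgeR (adjusted p = 0.0284 and 0.026).

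H2-D1, the other classical heavy chain, was measured at 196 and 238 CPM in the 0d pools, then 264 and 231 CPM (1d), 267 and 265 CPM (3d) and 220 and 205 CPM (30d). The 0d libraries overlapped the 1d and the 30d libraries, and only the 3d libraries lay above both. The log2 fold change was 0.19 (SE 0.10, edgeR adjusted p = 1.0) at 1d and 0.29 (SE 0.10, adjusted p = 0.731) at 3d. Without 0d replicate 1 the estimates were 0.06 at 1d and 0.16 at 3d, and neither passed. Without 0d replicate 2 they were 0.33 (adjusted p = 0.0868) and 0.44 (adjusted p = 0.0308), and the latter passed. Read pairs over several genes were counted for each, and 61.1% of the exon bases of H2-D1 also belong to the H2-L row, so the 2 rows share reads. Of the 50-base words of its longest transcript, 14.3% also occurred in transcripts of other genes, against 8.79% for H2-K1 and 0.0% for B2m, and reads that map to several places were not counted.

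B2m, the light chain common to all class I molecules, was measured at 171 and 186 CPM before injection, 250 and 189 CPM at 1d, 230 and 226 CPM after 3 days and 163 and 186 CPM after 30 days. At 1d the libraries differed more from each other than replicate 2 did from 0d, whereas the 3d libraries were close together and above both 0d libraries. The log2 fold change was 0.30 (SE 0.15, edgeR adjusted p = 1.0) at 1d and 0.35 (SE 0.15, adjusted p = 0.859) at 3d. The 1d difference was 0.08 without 1d replicate 1, where it did not pass, and 0.48 (adjusted p = 0.0168), which passed, without 1d replicate 2. In a fit of the 0d and 3d libraries alone the 3d difference passed (adjusted p = 0.00264).

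**Figure D3:**
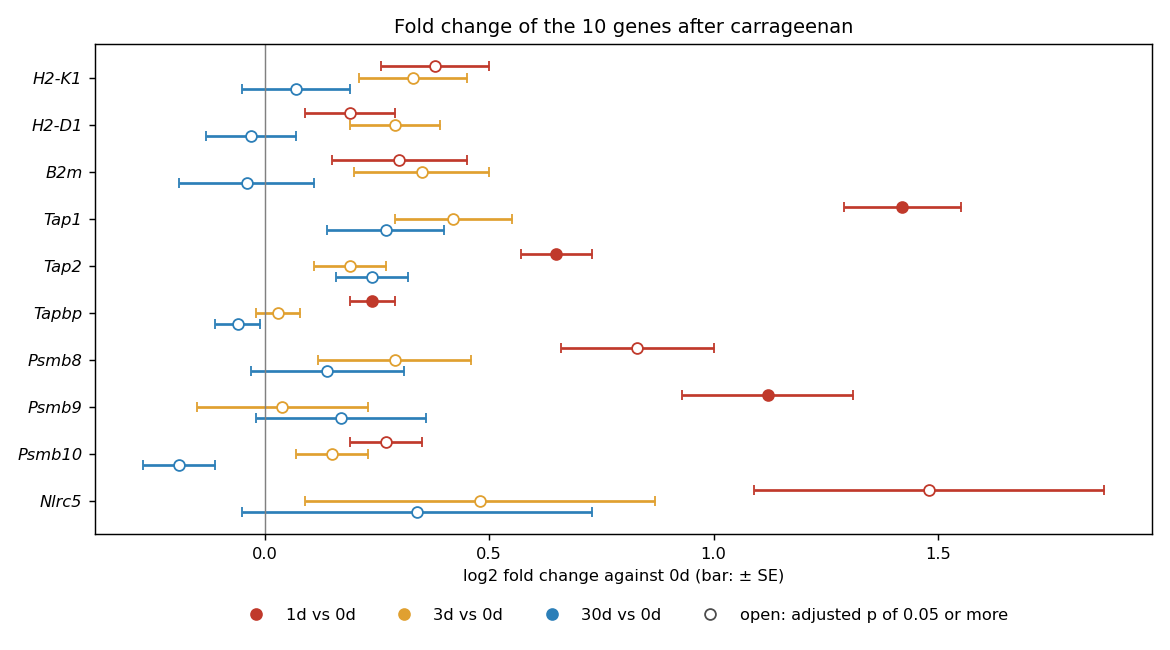
Log2 fold change of each of the 10 genes against 0d at 1d, 3d and 30d, with bars of ± SE from edgeR; filled points have an adjusted p under 0.05. Tap1, Tap2, Tapbp and Psmb9 are filled at 1d, no gene is filled at 3d or 30d, and for H2-K1, H2-D1 and B2m the 1d and 3d points differ by at most 0.10.

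The later time points were also compared with 1d directly. From 1d to 3d, Tap1, Tap2 and Psmb9 were called lower, 3 of the 10 genes against 0.265% of all genes called lower. Their log2 fold changes were -1.0 (SE 0.13, edgeR adjusted p = 0.00234), -0.46 (SE 0.08, adjusted p = 0.0153) and -1.08 (SE 0.19, adjusted p = 0.0231). All 3 calls were lost without 1d replicate 1 (adjusted p = 0.0713, 0.3 and 0.0911), 3d replicate 1 (0.0941, 0.461 and 0.575) or 3d replicate 2 (0.114, 0.317 and 0.374), and that of Psmb9 also without 1d replicate 2 (0.345), while the estimates stayed negative. Tapbp (-0.21, SE 0.05, adjusted p = 0.101), Psmb8 (-0.55, SE 0.16, adjusted p = 0.535), Nlrc5 (-1.0, SE 0.38, adjusted p = 1.0) and Psmb10 (-0.12, SE 0.08, adjusted p = 1.0) also had negative estimates and did not pass. With each library left out in turn, the estimates ranged from -0.73 to -0.34 for Psmb8, -1.33 to -0.56 for Nlrc5 and -0.20 to -0.04 for Psmb10. Tapbp was called by DESeq2 (adjusted p = 0.0208) and, in edgeR, with no filter on low counts (0.0389) or with these groups alone (0.00941). Psmb8 was called with these groups alone (0.00933) or without either 30d library (0.0461 and 0.0489). The 3d minus 1d difference was -0.05 for H2-K1 (95% interval -0.28 to 0.18), 0.10 for H2-D1 (-0.10 to 0.30) and 0.05 for B2m (-0.24 to 0.34). These 3 intervals hold 0, which does not show that the levels at 1d and 3d were alike.

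From 1d to 30d all 10 genes had both later libraries below both 1d libraries, as 20.4% of all genes tested did. Of the 10, 5 were called lower (Tap1, Tap2, Tapbp, Psmb9 and Psmb10), against 0.514% of all genes. The log2 fold changes were -1.16 (SE 0.13, edgeR adjusted p = 0.000396) for Tap1, -0.30 (SE 0.05, adjusted p = 0.00593) for Tapbp, -0.95 (SE 0.19, adjusted p = 0.0329) for Psmb9, -0.46 (SE 0.08, adjusted p = 0.0204) for Psmb10 and -0.42 (SE 0.08, adjusted p = 0.0221) for Tap2. Tap1 and Tapbp were called without any single library. The Tap2 call was lost without 1d replicate 1 (adjusted p = 0.121), either 3d library (0.0682 and 0.0651) or 30d replicate 2 (0.118), and that of Psmb9 without 1d replicate 2 (0.531), either 3d library (0.0823 and 0.0839) or 30d replicate 2 (0.0542). That of Psmb10 was lost without 1d replicate 1 (0.115) or either 3d library (0.0618 and 0.0615). With the 1d and 30d libraries alone Tap2 (0.0743), Psmb9 (0.0691) and Psmb10 (0.0725) were not called, nor was Psmb9 with no robust estimation (0.0534). Psmb8 (-0.70, SE 0.17, edgeR adjusted p = 0.119) and Nlrc5 (-1.14, SE 0.38, adjusted p = 0.343) were called by DESeq2 (adjusted p = 0.0082 and 0.0119). In edgeR Psmb8 passed with no filter on low counts (0.0385) or without 30d replicate 1 (-0.98, adjusted p = 0.00256). H2-K1 and B2m passed without 1d replicate 2 (-0.49, adjusted p = 0.00345, and -0.52, adjusted p = 0.01) and stood at -0.10 and -0.12 without 1d replicate 1.

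From 3d to 30d none of the 10 passed in edgeR (0.935% of all genes did), with 3 at an unadjusted p under 0.05 (13%) and 1, Psmb10, called by DESeq2 (2.03%). The 3 were H2-D1 (log2 fold change -0.32, SE 0.10, edgeR adjusted p = 0.265), B2m (-0.39, SE 0.15, adjusted p = 0.38) and Psmb10 (-0.34, SE 0.08, adjusted p = 0.0824). In edgeR with the 3d and 30d libraries alone, H2-K1 (adjusted p = 0.0243), H2-D1 (0.00562) and B2m (0.0119) passed. Psmb10 passed with no filter on low counts (0.0221). H2-D1 passed without 0d replicate 1 or 2 (adjusted p = 0.0213 and 0.0174), and B2m (0.0134 in both fits) and H2-K1 (0.0405 and 0.0389) passed without 1d replicate 1 or 2.

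Replicate 1 exceeded replicate 2 at 1d in 9 of the 10 genes, with ratios of replicate 2 to replicate 1 from 0.588 (Nlrc5) to 0.950 (Tapbp), and Psmb9 went the other way (1.25). At 3d the same ratios lay between 0.940 and 1.14. The mean z-score of the 10 genes (log2 CPM centred and scaled per gene over the 8 libraries) was -0.84 and -0.61 in the 0d libraries, 1.62 and 0.72 in the 1d libraries, 0.19 and 0.17 in the 3d libraries and -0.47 and -0.78 in the 30d libraries. The 5 other genes whose log2 CPM followed this mean most closely over the 8 libraries, among 14635 genes with a mean of at least 1 CPM, were Zfand4 (Pearson r = 0.98), Znfx1 (0.973), Ifi35 (0.963), Gm6548 (0.96) and Erap1 (0.957), a description over libraries that share their depth and time points. Their log2 fold changes at 1d, which the choice favours, lay between 0.23 (Znfx1) and 0.58 (Gm6548). Ifi35 is named for its induction by interferon and Erap1 trims peptides for class I molecules.

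The neighbouring steps of the pathway were read from lists chosen by function. Of 25 other class I heavy chain genes, 20 were tested and 1 was called at 1d (0.346% of all genes were). Of the 20, 10 had an unadjusted p under 0.05 (4.47% of all genes did). The median log2 fold change of the 20 was 0.37. Several of these rows share reads, since H2-Q6 and H2-Q8 had identical counts, as did H2-Q7 and H2-Q9, and H2-T9 shares all its exon bases with H2-T22. H2-L shares 99.6% of its exon bases with H2-D1, so the 20 rows are not 20 separate measurements. The gene called was H2-T23, which encodes the non-classical Qa-1 molecule read by natural killer cell receptors. It was measured at 12.9 and 10.7 CPM in the 0d libraries, 28.0 and 22.7 CPM in the 1d libraries, 14.9 and 13.3 CPM in the 3d libraries and 15.9 and 12.5 CPM in the 30d libraries, with a log2 fold change of 1.10 (SE 0.14, edgeR adjusted p = 0.00256) at 1d. H2-T9 and H2-T22 both read 23.8 and 24.2 CPM at 0d and 33.7 and 29.5 CPM at 1d (0.40, SE 0.09, adjusted p = 0.105 and 0.109), and passed only in the fall from 1d to 30d (-0.45, SE 0.09, adjusted p = 0.0304 for both).

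The general machinery of protein folding and degradation was also measured. None of 11 peptide loading and trimming genes, 9 proteasome activator and assembly genes or 14 constitutive 20S proteasome genes was called in edgeR at 1d (0.346% of all genes were). At an unadjusted p under 0.05 there were 1, 2 and 0 (4.47% of all genes), and the median log2 fold changes were 0.01, 0.02 and 0.02. The loading and trimming gene with the largest difference at 1d was Erap1, a peptide-trimming aminopeptidase (0.38, SE 0.10, edgeR adjusted p = 0.333). The most abundant of each list were the chaperones Canx (-0.04, SE 0.04) and Calr (0.01, SE 0.05), the activators Psme4 (0.02, SE 0.04) and Psme3 (0.02, SE 0.05), and the subunits Psmb1 (0.02, SE 0.05) and Psmb7 (0.05, SE 0.06). Psme1 and Psme2, which form the interferon-inducible proteasome cap and were chosen after their values were seen, differed by 0.24 (SE 0.09, adjusted p = 0.816) and 0.36 (SE 0.07, adjusted p = 0.0606).

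Of 18 known regulators of class I promoters, 1 was called higher at 1d (0.329% of all genes were), the interferon signal transducer Stat2. At an unadjusted p under 0.05 there were 4 (4.47% of all genes). The median of the list was -0.02 on the log2 scale. Stat2 was measured at 77.5 and 72.9 CPM before injection, 127 and 116 CPM at 1d, 89.6 and 88.3 CPM after 3 days and 74.3 and 82.2 CPM after 30 days (0.69 at 1d, SE 0.06, edgeR adjusted p = 4.3e-05). The transcription factors Irf1 (0.50, SE 0.10, adjusted p = 0.0653) and Irf9 (0.86, SE 0.16, adjusted p = 0.0897) did not pass at 1d. Both passed in the fall from 1d to 30d, with -0.59 (SE 0.10, adjusted p = 0.0147) and -1.09 (SE 0.16, adjusted p = 0.0199). The class II transactivator Ciita, the relative of Nlrc5 and also chosen after its values were seen, differed by 0.43 (SE 0.22, adjusted p = 1.0) at 1d.

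**Figure D4:**
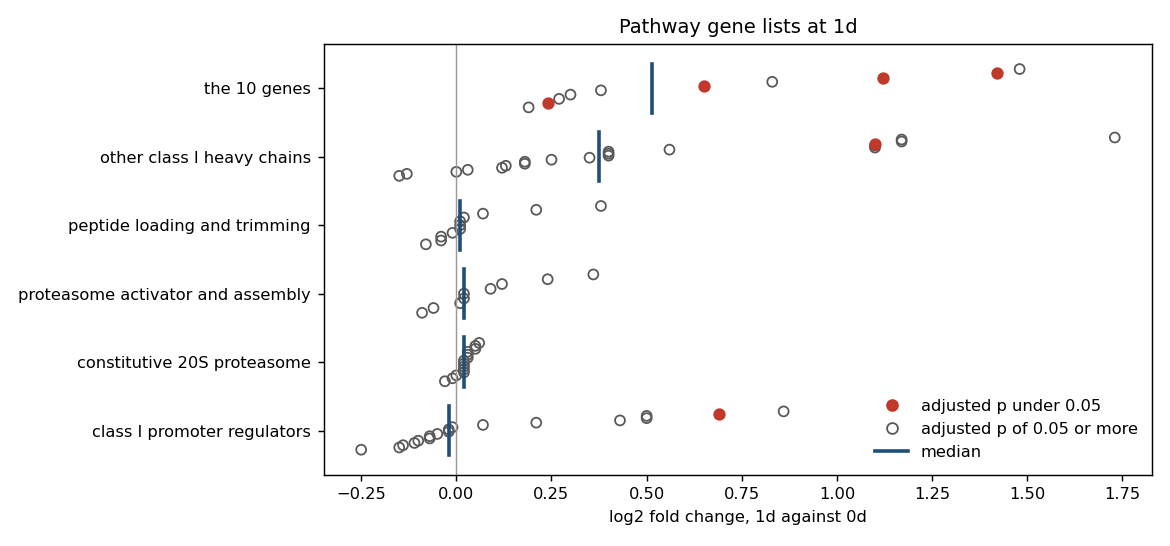
Log2 fold change at 1d against 0d of every tested gene in the 10 genes and 5 pathway lists, 1 point per gene, filled where the edgeR adjusted p is under 0.05, with the median of each list as a bar. The medians of the 10 genes (0.52) and of the other class I heavy chains (0.37) lie to the right of 0, with 17 of the 20 other heavy chains positive. The constitutive 20S proteasome genes lie within a narrow range around 0.02.

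The counts of the 10 interferon genes on the list were at or near 0. Of these 10 genes, 9 had 0 counts in every library and Ifng had 3 counts in 1 library, 3d replicate 2, and none could be tested. A count of 0 allows up to 0.0408 to 0.068 CPM (3 counts of a library's total, counting error only). Reads that map to several places were not counted, and this range does not cover them.

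Markers of immune cells and of other cell types were set beside these values. The 14 CD8 T and natural killer cell markers in the table summed to 2.48 and 3.16 CPM in the 0d libraries, 3.93 and 2.71 CPM in the 1d libraries, 3.54 and 2.93 CPM in the 3d libraries and 3.72 and 3.30 CPM in the 30d libraries, with up to 3 of them at 0 in a library (Cd8a, Cd3d and Gzmb at 30d replicate 2). Their 0d and 1d sums overlapped. The 5 B cell markers summed to 2.86 to 6.42 CPM and the 7 dendritic cell markers to 34.9 to 41.0 CPM, of which Flt3 alone gave 24.8 to 28.7 CPM. The 13 macrophage markers summed to 154 and 133 CPM in the 0d pools, then 159 and 154 CPM (1d), 151 and 152 CPM (3d) and 160 and 146 CPM (30d), with none at 0 in any library. None of these lists had a gene called at 1d in edgeR, and 0, 0, 0 and 4 of their genes had an unadjusted p under 0.05 (4.47% of all genes did). Of the 13 macrophage markers, 7 had an unadjusted p under 0.05 from 1d to 3d (4.24% of all genes) and 7 from 1d to 30d (11.7%). The complement subunits C1qa, C1qb and C1qc, singled out after their values were seen, were higher in both 1d libraries than in the other 6. Their log2 fold changes were 0.30, 0.42 and 0.30 at 1d (edgeR adjusted p = 0.445, 0.354 and 0.585). From 1d to 3d they were -0.25, -0.36 and -0.30 (edgeR adjusted p = 0.717, 0.585 and 0.585). Of the 13 macrophage markers, 8 had a positive log2 fold change at 1d (median 0.15). The others were Csf1r (-0.03), Cd68 (-0.10), Adgre1 (-0.14), Cx3cr1 (-0.27) and Mertk (-0.06). The only macrophage marker called in any comparison was Cx3cr1, which fell by 1.02 (SE 0.14, edgeR adjusted p = 0.00794) from 0d to 3d and by 0.75 (SE 0.15, adjusted p = 0.0476) from 1d to 3d. The 7 neutrophil markers in the table summed to 31.8 and 67.7 CPM at 0d, then 75.6 and 78.9 CPM (1d), 98.5 and 102 CPM (3d) and 143 and 71.7 CPM (30d), with none of the 7 called in any comparison in edgeR, 1 at an unadjusted p under 0.05 at 1d, 1 at 3d and 3 at 30d (12.3% of all genes), and none at 0 in any library. All 7 had a positive log2 fold change against 0d at each time, with medians of 0.64 (1d), 1.00 (3d) and 1.05 (30d). The 9 skeletal muscle markers summed to 152 and 82.7 CPM at 0d, then 33.9 and 72.1 CPM (1d), 74.4 and 71.4 CPM (3d) and 125 and 23.9 CPM (30d). All 9 had a negative log2 fold change at 1d (median -1.22), and 1 of them, Myh1, was called lower (-1.47, SE 0.27, edgeR adjusted p = 0.0324). The 6 Schwann cell markers summed to 10800 and 7890 CPM at 0d, then 7670 and 7730 CPM (1d), 9030 and 8960 CPM (3d) and 5440 and 7680 CPM (30d). At 1d, 1 of the 6 had a positive log2 fold change (median -0.23). The 8 endothelial cell markers summed to 126 to 145 CPM. Neither list had a gene called at 1d in edgeR, with 1 and 0 genes at an unadjusted p under 0.05 (4.47% of all genes did). The part of these cells in the changes of the 10 genes was not tested.

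The promoters of the genes are shown because class I promoters are known to carry a shared block of elements, bound by Rfx, CREB/ATF and NF-Y proteins and used by Nlrc5. RefSeq promoter sequences (GRCm38.p6, the mm10 build of the counts) were matched for 8 of the 10 genes by symbol, with none for Tap2 and Nlrc5, and the 250 bases before each gene start were searched on both strands. The motifs were the interferon regulatory factor core (AANNGAAA), its tandem form (GAAA repeated after 2 bases, which contains the core), the gamma-activated site (GAS, TTCNNNGAA), the NF-kB consensus, a CRE-like core (TGACG) and the CCAAT box (ATTGG on the reverse strand). In the 4 sequences that follow, 5′ to 3′ on the gene's strand, capitals mark the matches, except the first 2 bases of the tandem element of B2m, and NF-kB matches that overlap each other are marked as 1 stretch.
H2-K1, chr17:34000334-34000583, minus strand: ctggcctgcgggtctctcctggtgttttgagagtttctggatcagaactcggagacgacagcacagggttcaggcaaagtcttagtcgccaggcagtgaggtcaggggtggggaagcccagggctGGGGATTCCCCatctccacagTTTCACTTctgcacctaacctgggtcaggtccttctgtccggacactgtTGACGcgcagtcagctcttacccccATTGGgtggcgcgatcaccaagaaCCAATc
H2-D1, chr17:35262844-35263093, plus strand: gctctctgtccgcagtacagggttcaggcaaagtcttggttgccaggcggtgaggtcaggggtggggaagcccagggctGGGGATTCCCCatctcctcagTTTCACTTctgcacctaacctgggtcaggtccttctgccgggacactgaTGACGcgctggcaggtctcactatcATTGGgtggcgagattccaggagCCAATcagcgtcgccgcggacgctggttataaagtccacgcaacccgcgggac
B2m, chr2:122147437-122147686, plus strand: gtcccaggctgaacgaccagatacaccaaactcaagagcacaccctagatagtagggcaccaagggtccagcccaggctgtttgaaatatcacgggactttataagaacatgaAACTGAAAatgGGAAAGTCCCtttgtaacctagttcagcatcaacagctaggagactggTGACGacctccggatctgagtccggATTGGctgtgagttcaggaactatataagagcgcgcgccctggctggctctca
Tap1, chr17:34187306-34187555, plus strand: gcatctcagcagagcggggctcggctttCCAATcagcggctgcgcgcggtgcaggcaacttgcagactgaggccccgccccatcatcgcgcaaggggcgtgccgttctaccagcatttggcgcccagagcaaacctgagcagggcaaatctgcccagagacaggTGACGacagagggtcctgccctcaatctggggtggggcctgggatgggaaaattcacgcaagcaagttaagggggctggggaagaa

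The H2-K1, H2-D1 and B2m windows each held an interferon regulatory factor core (as 21.3% of 32851 RefSeq promoter windows of this length did), an NF-kB match (7.25%), and TGACG followed after 20 bases by ATTGG. This spaced pair, which was composed after the sequences had been seen, occurred in 30 windows (0.0913%), belonging to 26 genes. Among these 26 were the 3 members and 1 of the 14 other class I heavy chain genes with an entry, H2-M3. The pair began 55 bases before the start in H2-K1, 101 in H2-D1 and 78 in B2m. B2m also held the tandem interferon element (2.98% of windows).

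Tap1 and Psmb9 are read from opposite strands with starts 226 bases apart, so that their windows share 225 bases, including TGACG (17.8% of windows) and a CCAAT box (33.8%). Psmb8 held a GAS element (7.02%) and Tapbp 2 CCAAT boxes, and the Psmb10 window held none of the motifs. No link between these motifs and the time courses was tested.

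**Figure D5:**
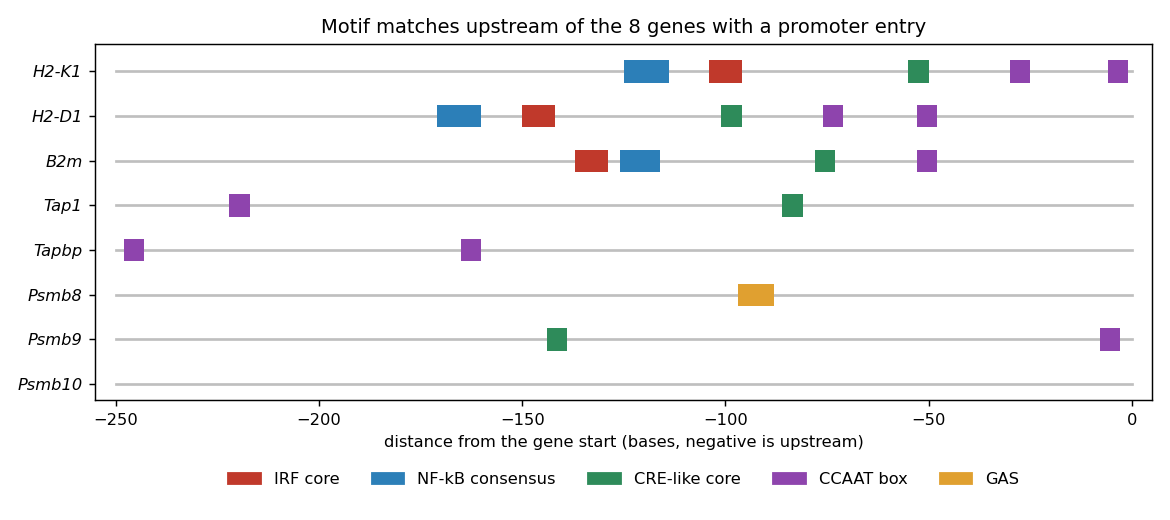
Motif matches on either strand in the 250 bases before the start of 8 genes, as coloured blocks against the distance from the start in bases, with the gene start at 0. H2-K1, H2-D1 and B2m hold the interferon regulatory factor, NF-kB, CRE-like and CCAAT matches, with the CRE-like and CCAAT blocks at the same spacing of 20 bases, and Psmb10 holds none.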

How the data were processed

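RNA from pools of 2 to 3 mice was sequenced on HiSeq 2000 after TruSeq library preparation. The authors deposited raw counts per gene, made, per the submitters' processing notes and the table's header, with cutadapt 2.10, STAR 2.7.5a on mm10 and featureCounts 2.0.1, in pairs, without strand, with pairs over several genes counted for each and multi-mapping reads left out. All 8 columns were matched to samples by title, and groups came from the labels.

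Counts were filtered with filterByExpr (17328 of 24421 genes kept), scaled by TMM (factors 0.993 to 1.01) and fitted over all 8 libraries with edgeR 4.0.16 in R 4.3.3 (robust quasi-likelihood F-test), with Benjamini-Hochberg adjustment over all genes tested. The SE was derived from the log2 fold change and F, and intervals are normal 95% intervals. Replicates differed by more than sampling noise (chi-square per degree of freedom 7.19 to 25.4), and at 44123208 to 73580338 counts per library the spread between pools limits the precision (biological coefficient of variation 8.85%).

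Tested on counts simulated for 1d against 0d over 17328 genes, the fit called 22% of 50 genes changed by 0.25 on the log2 scale, 64% at 0.5, 90% at 1 and 100% at 1.5, beside 11 unchanged genes. The simulated spread was the dispersion of the fit, without the further spread that the quasi-likelihood test estimates gene by gene. Only genes above a mean of 1 CPM were changed, and the shares may be too high for genes with a wide spread. Alternatives were DESeq2 1.42.0, its size factors, no filter, no robust estimation, the compared groups alone, a replicate block and each library left out. The members and lists were chosen with earlier results of these data known. All 10 members are named. From each pathway list up to 5 genes called in any comparison, by the smallest p at 1d, or else the 2 most abundant, are named, as are the 5 genes whose log2 CPM correlated best with the members' mean z-score. One listed gene is not reported here and was left out of its list.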

Additional observations from a re-analysis of the deposited data

Results flagged for a closer look

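The change from 0d differed between time points for several genes, as tested by the direct contrast between the time points in edgeR, which compares 2 effects that share the 0d libraries. Between 3d and 1d, the effect against 0d differed by -1.0 for Tap1, -0.46 for Tap2 and -1.08 for Psmb9 on the log2 scale, and among the other pathway genes by -0.85 for H2-T23, -0.45 for Stat2 and -0.62 for Irf1. Between 30d and 1d, it differed by -1.16 for Tap1, -0.42 for Tap2, -0.30 for Tapbp, -0.95 for Psmb9 and -0.46 for Psmb10. Over the same interval the difference was -0.84 for H2-T23, -0.45 for both H2-T9 and H2-T22, which hold nearly the same reads, -0.63 for Stat2, -0.59 for Irf1 and -1.09 for Irf9. All these genes were lower at the later time point in both libraries, with edgeR adjusted p-values under 0.05. No group had enough libraries for a search for single outlying libraries.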

How the results depend on the processing

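With 2 pools per time point, calls turned on single libraries more often than estimates did. The number of the 10 genes called at 1d was 4, with 3 to 7 under the alternatives that kept both libraries of each compared group (3 with no robust estimation, 7 by DESeq2). At 3d it was 0 against 0d, 2 when these groups were fitted alone and 1 by DESeq2. From 1d to 3d it was 3, 5 when fitted alone and 4 by DESeq2. From 3d to 30d it was 0, 1 with no filter, 3 fitted alone and 1 by DESeq2. From 1d to 30d it was 5, 2 fitted alone and 7 by DESeq2. The cause was not tested. At 30d against 0d it was 0 in every fit made. Leaving out each library in turn gave 2 to 5 calls at 1d, 0 to 1 at 3d, 0 to 4 from 1d to 3d, 0 to 2 from 3d to 30d and 2 to 6 from 1d to 30d.

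Single estimates changed sign only when a library was left out and only where no call had been made. The ranges were -0.11 to 0.21 for Psmb9 at 3d, and at 30d -0.16 to 0.11 for H2-D1, -0.13 to 0.05 for B2m, -0.15 to 0.38 for Psmb8 and -0.20 to 0.74 for Nlrc5. From 1d to 3d they were -0.23 to 0.16 for H2-K1 and -0.13 to 0.27 for B2m, and from 3d to 30d -0.04 to 0.12 for Tap2, -0.43 to 0.09 for Psmb8 and -0.68 to 0.26 for Nlrc5. Of 360 estimates under the 6 alternatives that kept both libraries of each compared group, 330 kept their side of the threshold, 24 passed it newly and 6 lost it, and all kept their direction.

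Over all genes, the alternatives that kept both libraries of each compared group gave 50 to 105 calls at 1d (60 in the fit reported), 20 to 121 at 3d (38), 0 to 182 at 30d (4), 43 to 260 from 1d to 3d (50), 92 to 358 from 3d to 30d (162) and 74 to 222 from 1d to 30d (99). Leaving out each library in turn gave 26 to 111, 1 to 121, 1 to 202, 5 to 117, 12 to 525 and 51 to 359 in the same order. No pairing by replicate number was seen over all genes, where the differences between replicates correlated between time points by -0.014 to 0.044. This does not show that same-numbered pools were handled separately. With the replicate block, 6 of the 10 genes were called at 1d (also Psmb8, adjusted p = 0.0231, and Nlrc5, 0.0208), 0 at 3d, 3 from 1d to 3d and 7 from 1d to 30d (also Psmb8, 0.0396, and Nlrc5, 0.0456), and 73 of all genes were called at 1d and 69 at 30d.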
